A study of Mus musculus with 6 samples.

Results

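The mitochondrial ribosomal protein genes are the nuclear genes that encode the proteins of the mitoribosome, the ribosome inside mitochondria. They were taken by name, as protein-coding genes whose mouse symbol starts with Mrpl or Mrps followed by a digit, and 78 of the 31053 listed genes met this rule. Of these, 51 encode proteins of the large subunit and 26 proteins of the small subunit. *Mrps30* and *Mrps18a* were counted with the large subunit, where their proteins sit despite their names. The last gene, *Mrps36*, carries the family name but encodes a protein now known as a subunit of the 2-oxoglutarate dehydrogenase complex.

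The mitoribosome translates the few mRNAs that are transcribed from mitochondrial DNA, all of which encode subunits of the respiratory chain and the ATP synthase. Its own proteins are made in the cytosol by cytosolic ribosomes and imported afterwards, so the mRNAs described here are read by the ribosomes that carried the editing enzyme. Some mitoribosomal proteins descend from bacterial ribosomal proteins and others are found only in mitochondria. Neurons depend on oxidative phosphorylation, and loss of several of these genes is known to cause disorders of energy metabolism.

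The data came from 6 bulk libraries of polyadenylated RNA from primary cortical neurons of wild-type C57BL/6J mouse embryos at embryonic day 18. Floxuridine was given at day in vitro (DIV) 3 against dividing cells, an inducible construct was delivered by AAV at DIV 6, Dox was applied at 1 μg per ml for 48 h, and cells were collected at DIV 14. In 3 libraries the construct was RPL10A-STAMP and in 3 it was RPL22-STAMP, each a fusion of a protein of the large cytosolic ribosomal subunit with rAPOBEC1, an enzyme that converts C to U in RNA. All 6 libraries therefore carried AAV, rAPOBEC1 and Dox, and no library without a construct was analysed here. The transactivator that answers to Dox was driven by the human synapsin promoter, which the study used for expression in neurons. The measurement, EPR, is the number of C-to-U edits in a gene divided by the number of reads of that gene, and genes whose EPR exceeded 0 are termed edited. The edits and reads behind each ratio are unknown, so no counting error can be given, and a value of 0 can mean no edits or no reads. The reads of a bulk library come from all cells collected, so EPR is not limited to cells that carried the construct. A bulk EPR also cannot tell fewer cells with edits from fewer edits per cell. Whether the replicates were separate cultures is described in different ways in the study, so the p values below measure the spread between libraries, which may be technical.

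As a check of the cell type, all 9 neuronal markers examined, among them *Rbfox3*, *Map2* and *Syt1*, were edited in all 6 libraries. *Mog*, *Csf1r*, *Aif1*, *P2ry12*, *Cldn5* and *Pecam1*, which mark oligodendrocytes, microglia and endothelial cells, were at 0 in all 6. Of the 5 astrocyte markers, 4 were edited in all 6 libraries, with *Gfap* between 0.0184 and 0.0294, *Slc1a3* between 0.0267 and 0.0473, *Aqp4* between 0.0236 and 0.0678 and *Gja1* between 0.0267 and 0.106. EPR is not an RNA level, and the part of these cells in the values below was not tested.

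Most mitoribosomal mRNAs were edited in every library, at low EPR. Of the 78 genes, 53 (67.9%) were edited in all 6 libraries, 24 in 2 to 5 libraries and 1, *Mrpl53*, in none. Among all 21974 listed protein-coding genes, 36.1% were edited in all 6 libraries and 44.5% in none. The share was larger than the members' in 2 similar families. It was 66 of 84 for cytosolic ribosomal proteins and 67 of 84 for nuclear-encoded subunits of the respiratory chain and ATP synthase. Among other genes of mitochondrial translation, described below, the share was smaller, at 21 of 48. The RPL10A-STAMP libraries held 70, 73 and 70 edited members and the RPL22-STAMP libraries 67, 75 and 64, so that the ranges of the variants overlapped. The library with the fewest, RPL22-STAMP replicate 3, also had the fewest edited genes of any kind (9892), and without it 60 members were edited in all remaining libraries. Of the 468 member values, 49 were 0, 273 lay above 0 and under 0.01, and 146 were 0.01 or higher. No member had an EPR above 1 in any library, and only *Mrps24*, *Mrps36* and *Mrpl23* exceeded 0.05.

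The median EPR of the 53 members edited throughout was 0.00605, 0.00946 and 0.010 in RPL10A-STAMP replicates 1 to 3 and 0.00541, 0.00783 and 0.00904 in RPL22-STAMP replicates 1 to 3. Over all 8046 genes edited in all 6 libraries the medians were 0.0120, 0.0153 and 0.0161 with RPL10A-STAMP, against 0.00907, 0.0129 and 0.0112 with RPL22-STAMP. The members' median was below that of all genes in every library, and its place among the 8046 genes ran from percentile 18.9 to percentile 39.5. Per variant, the members' median was 0.00851 ± 0.00215 (SD, n = 3) in the RPL10A-STAMP libraries, as compared to 0.00743 ± 0.00184 (SD, n = 3) in the RPL22-STAMP libraries, a difference smaller than the spread between libraries. The median rose from replicate 1 to replicate 3 in both variants, and at each replicate number it was higher with RPL10A-STAMP. Divided by the library's own all-gene median the direction turned, with ratios of 0.582 ± 0.0665 (SD, n = 3) in the RPL10A-STAMP libraries and 0.669 ± 0.117 (SD, n = 3) in the RPL22-STAMP libraries. The proteins of the cytosolic ribosome and of the respiratory chain, which are also nuclear-encoded, had lower medians than the members in all libraries except RPL10A-STAMP replicate 1. For 66 cytosolic ribosomal protein genes edited throughout, the median per library lay between 0.00487 and 0.00689. For 67 nuclear genes of the respiratory chain and ATP synthase it lay between 0.00527 and 0.00719. The plot of group medians shows the 3 protein families together below the all-gene medians. It also shows 21 other genes of mitochondrial translation edited throughout, whose medians were below the all-gene medians too. They were above the members' medians with RPL10A-STAMP (0.00998, 0.0114 and 0.0138) and below them with RPL22-STAMP (0.00505, 0.00770 and 0.00667).

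**Figure D1:**
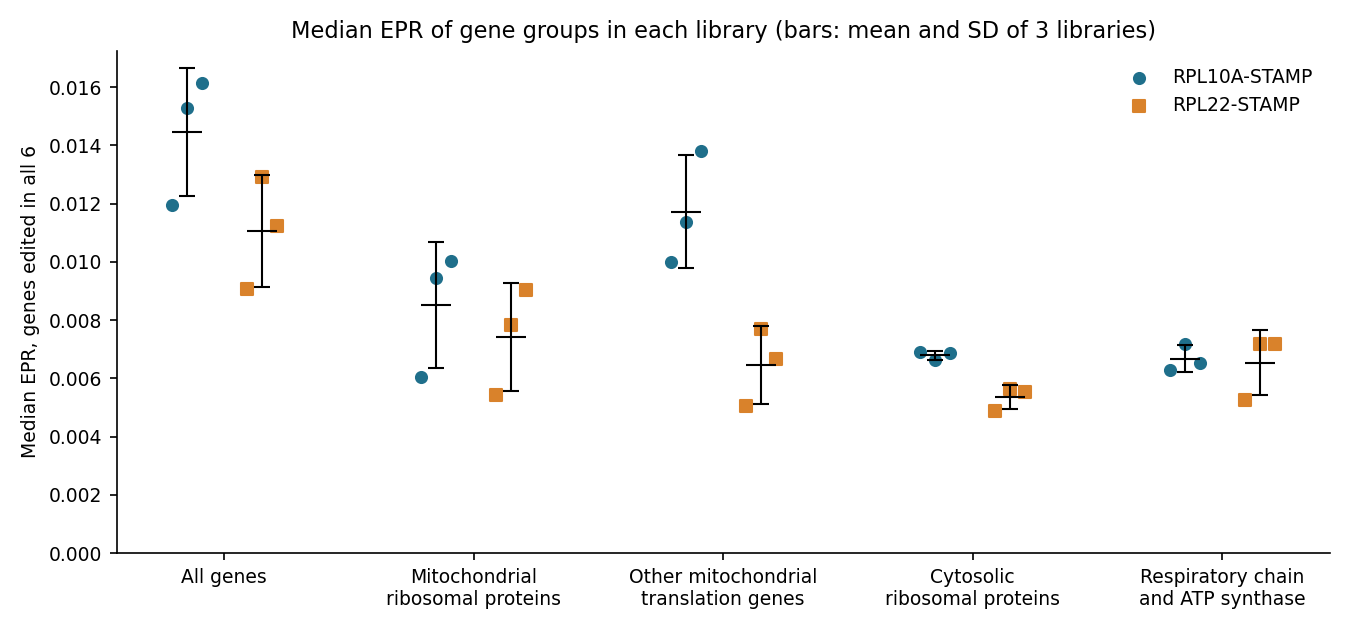
Median EPR (edits per read) of the genes edited in all 6 libraries, for all genes and 4 gene groups; points are libraries, bars the mean and SD of the 3 libraries of a variant. The medians of the mitochondrial ribosomal proteins lie between 0.00541 and 0.010, below the all-gene medians of 0.00907 to 0.0161.

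Members varied widely from library to library. After each library was scaled to its median gene, the highest of the 6 values of a member exceeded the lowest by a median of 4.17-fold (quartiles 2.81 and 6.59), against 2.86-fold over all 8046 genes. Within the range of scaled mean EPR under 0.01, which held 36 of the 53 members, the median was 4.50-fold for members and 3.14-fold for all genes. Across the 53 members, Spearman's rho between 2 libraries of RPL10A-STAMP was 0.476 to 0.508 and between 2 libraries of RPL22-STAMP 0.390 to 0.567. Between libraries of different variants it was 0.285 to 0.586, so that for these genes the ranks of EPR were about as similar across variants as within them. Over all 8046 genes the same measure was 0.778 to 0.809 within RPL10A-STAMP, 0.669 to 0.725 within RPL22-STAMP and 0.516 to 0.575 between variants. These correlations are across genes, which share a library and its depth, and are given as descriptions.

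**Figure D2:**
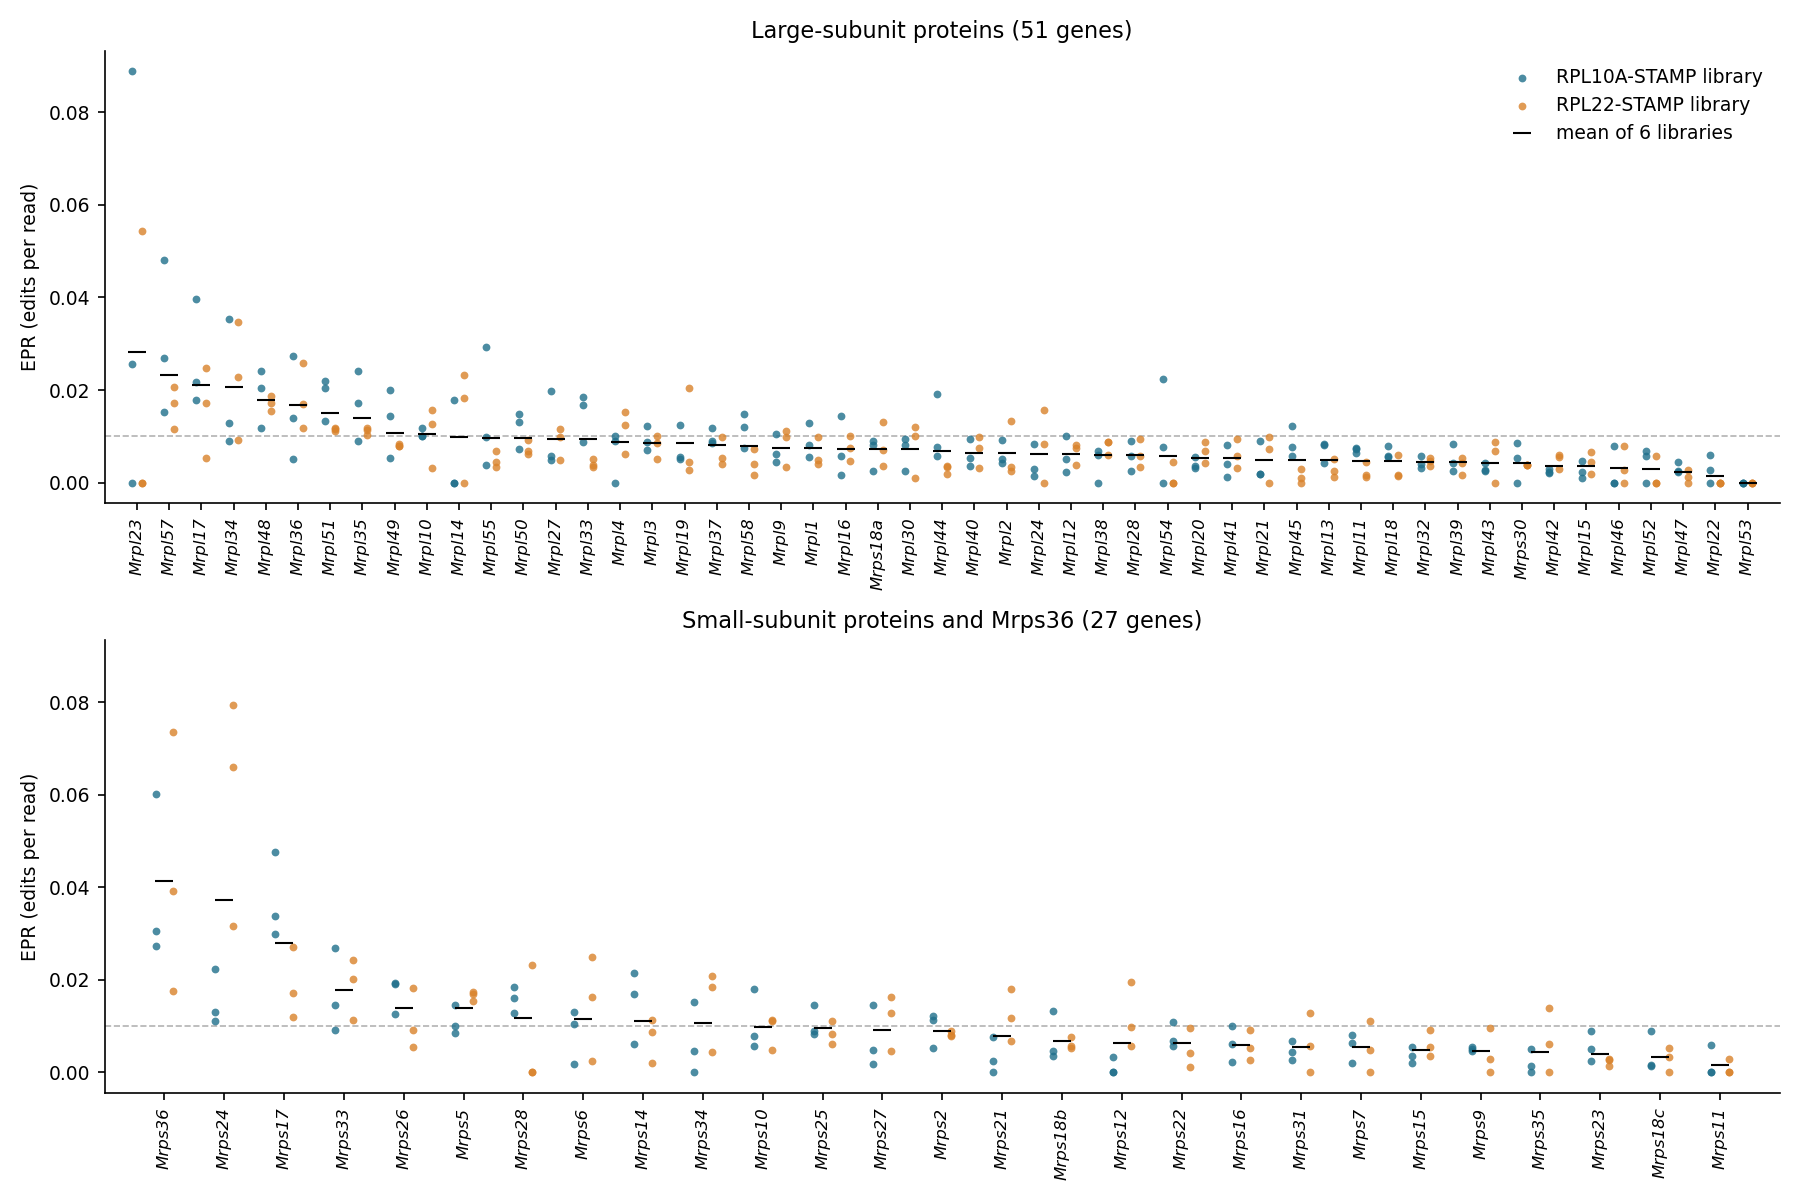
EPR of each of the 78 mitochondrial ribosomal protein genes in each of the 6 libraries, ordered by the mean of the 6 (black dash); the dashed line marks an EPR of 0.01, and points at 0 had no recorded edit. Most genes lie under the line, and *Mrpl23*, *Mrps24* and *Mrps36* reach values above 0.05.

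The highest mean EPR belonged to *Mrps36*, the member that is not a mitoribosomal protein (chr13:100735955-100744659, minus strand, mm10). Its EPR was 0.0305, 0.0273 and 0.0602 with RPL10A-STAMP, against 0.0175, 0.0391 and 0.0735 with RPL22-STAMP. Replicate 3 was the highest of each variant and all RPL10A-STAMP values fell between the lowest and highest RPL22-STAMP value, with a log2 fold change of -0.32 (RPL10A minus RPL22, SE 0.38, limma adjusted p = 0.603). The next was *Mrps24*, which is described with the differences between the variants. Among the members edited in all 6 libraries, the third was *Mrps17*, the counterpart of a bacterial protein that binds early to the rRNA of the small subunit. *Mrps17* (chr5:129715497-129722556, plus strand) gave 0.0298, 0.0338 and 0.0476 with RPL10A-STAMP, against 0.0120, 0.0270 and 0.0172 with RPL22-STAMP. The RPL10A-STAMP libraries were all above the RPL22-STAMP libraries, but the log2 fold change of 0.46 (SE 0.17) did not pass the test (limma adjusted p = 0.114).

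At the other end, *Mrps23*, *Mrpl42* and *Mrpl15* had the lowest mean EPR of the members edited throughout. *Mrps23*, a small-subunit protein without a bacterial counterpart, ranged from 0.00140 to 0.00900 over the 6 libraries. *Mrpl15*, whose protein has a bacterial counterpart in the large subunit, ranged from 0.000875 to 0.00667. The mean of *Mrps36* over the 6 libraries was 11.8 times that of *Mrpl15*. Between neighbours in this order of 53, however, the 6 values of 1 gene overlapped those of the next in all 52 pairs, so only genes far apart in it can be told apart by their spread.

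By subunit, 36 of 51 large-subunit genes (70.6%) and 16 of 26 small-subunit genes (61.5%) were edited in all 6 libraries. In the large subunit, 23 of 30 proteins with a bacterial counterpart and 13 of 21 found only in mitochondria were among them, and in the small subunit 9 of 16 and 7 of 10. Among the genes edited in all 6 libraries, the median EPR of large-subunit genes ran from 0.00451 to 0.00916 over the libraries. That of small-subunit genes ran from 0.00561 to 0.0112 and was the higher of the pair in each of the 6 libraries. Over all genes of each subunit, zeros included, the large-subunit median was the higher in RPL10A-STAMP replicates 2 and 3. It was 0.00875 and 0.00825 there, against 0.00865 and 0.00662 for the small subunit. In the other libraries the small-subunit median stayed the higher, and these differences were not tested.

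Within the large subunit, the genes of the L7/L12 stalk, the arm that recruits translation factors, were edited in all 6 libraries for 3 of 5. *Mrpl10* (chr11:97041560-97049213, plus strand) anchors the stalk, and its EPR was 0.0101, 0.0101 and 0.0119 with RPL10A-STAMP, against 0.00304, 0.0127 and 0.0157 with RPL22-STAMP. Its RPL10A-STAMP values sat close together inside the range of the RPL22-STAMP values. *Mrpl12* (chr11:120484613-120489065, plus strand), the mobile protein of the stalk, gave 0.00228, 0.00514 and 0.010 with RPL10A-STAMP, against 0.00741, 0.00811 and 0.00380 with RPL22-STAMP, again with full overlap. The log2 fold changes were -0.09 (limma adjusted p = 0.837) and -0.24 (limma adjusted p = 0.431), and both changed sign when the trend with transcript GC content was removed. The exons of *Mrpl12* share 13.0% of their bases with a gene on the opposite strand, and whether the counting used strand is not given in the sources used here.

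*Mrpl53*, which is also assigned to the stalk, was the only member at 0 in all 6 libraries. On mm10 it lies at chr6:83109040-83109939 on the plus strand, and 88.0% of its exon bases also belong to *Gm42688*, an annotated gene on the same strand. *Gm42688* was itself edited in 2 libraries, RPL22-STAMP replicates 2 and 3. How reads on exons of both genes were assigned is not given in the sources used here, so the 0 of *Mrpl53* is uncertain, and the part of the overlap in it was not tested.

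At the exit tunnel, where the growing protein leaves the ribosome, 1 of 6 genes was edited in all 6 libraries. *Mrpl45* (chr11:97315716-97329920, plus strand), which holds the mitoribosome to the inner membrane, was at 0.00760, 0.00573 and 0.0122 with RPL10A-STAMP, against 0.00303, 0.00108 and 0 with RPL22-STAMP. All RPL10A-STAMP values exceeded all RPL22-STAMP values, but the 0 kept the gene out of the main test. *Mrpl23*, chosen after its values were seen, showed the most erratic values of the family. It was at 0, 0.0889 and 0.0256 with RPL10A-STAMP, against 0, 0.0544 and 0 with RPL22-STAMP. Of its transcript of 736 bases, 68.9% is matched exactly elsewhere in the genome in an unbroken run of 507 bases, so its reads can be split with the copy and its EPR is uncertain. *Mrpl22*, also chosen after its values were seen, was the only member at 0 in all 3 libraries of 1 variant (RPL22-STAMP) and above 0 in the other, where it reached 0.00597 and 0.00276 and was at 0 in replicate 1.

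In the small subunit, *Mrps12* (chr7:28739641-28741820, minus strand) encodes the protein at the decoding centre. It was at 0, 0.00331 and 0 with RPL10A-STAMP, against 0.00571, 0.0194 and 0.00977 with RPL22-STAMP. Every RPL22-STAMP library was above every RPL10A-STAMP library, the reverse of *Mrpl45*, and *Mrps12* too was left out of the main test for its zeros. Both entered the fits on genes edited in at least 3 libraries and without a filter, and neither was called there. Of the genes in the main test, 28.2% did not overlap on deposited values toward RPL10A-STAMP and 6.21% toward RPL22-STAMP. No member was at 0 in all libraries of 1 variant and edited in all libraries of the other.

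Differences between RPL10A-STAMP and RPL22-STAMP ask whether the 2 tagged ribosomal proteins report these mRNAs alike. They were tested over the 8046 genes edited in all 6 libraries, with limma on log2(EPR + 0.01) of scaled values and Benjamini-Hochberg adjustment over all 8046. Only 2 of the 53 members tested passed an adjusted p of 0.05, *Mrps24* and *Mrps5*, and both were higher with RPL22-STAMP. Both encode small-subunit proteins whose bacterial counterparts line the entry of the mRNA channel. Of all tested genes 14.3% were called, 8.51% toward RPL10A-STAMP and 5.77% toward RPL22-STAMP, against 3.77% of the members, all in the direction of RPL22-STAMP. Among the 14 cell type markers tested, 2 (14.3%) were called, the same share as over all tested genes. They were *Syn1* (log2 fold change -0.82, limma adjusted p = 0.00814) and *Gad2* (-0.54, limma adjusted p = 0.0446), both neuronal and higher with RPL22-STAMP. The tested markers were 9 of neurons, 4 of astrocytes and 1 of the oligodendrocyte lineage, too few to set cell types apart. At low EPR calls were rare in any gene: 2.84% of the 2675 genes with a scaled mean EPR under 0.01 were called, and none of the 36 members in that range. At 0.01 or above 20.0% of 5371 genes were called, and 2 of 17 members (11.8%).

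*Mrps24* lies at chr11:5703983-5715680 on the minus strand of mm10, with 4 exons in its longest coding transcript. Its EPR was 0.0131, 0.0111 and 0.0222 in the RPL10A-STAMP libraries and 0.0317, 0.0794 and 0.0661 in the RPL22-STAMP libraries. The lowest RPL22-STAMP library stood above the highest RPL10A-STAMP library, with RPL22-STAMP replicate 1 the lowest of its variant. The means were 0.0155 ± 0.00593 and 0.0590 ± 0.0246 (SD, n = 3 each), and after scaling the mean with RPL22-STAMP was 4.86 times the mean with RPL10A-STAMP. On the log2(EPR + 0.01) scale the difference was -1.66 (SE 0.23, limma adjusted p = 0.00636), and it stayed past the threshold without any 1 of the 6 libraries, with adjusted p from 0.0113 to 0.0288. Of its exon bases 15.4% are shared on the same strand with *Urgcp* (chr11:5713417-5762376), a neighbour chosen for that reason. *Urgcp* was at 0.00992, 0.00718 and 0.0129 with RPL10A-STAMP, against 0.00797, 0.0274 and 0.0278 with RPL22-STAMP. It too was higher in 2 of the 3 RPL22-STAMP libraries, though it did not pass the test (log2 fold change -0.76, limma adjusted p = 0.102). Without RPL22-STAMP replicate 1 its adjusted p was 0.020, and the part of the shared bases in the value of *Mrps24* was not tested.

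*Mrps5* (chr2:127587222-127606829, plus strand, 12 exons) gave 0.00846, 0.010 and 0.0145 with RPL10A-STAMP, against 0.0155, 0.0173 and 0.0170 with RPL22-STAMP. The RPL22-STAMP values were close together, with an SD of 0.000985, and all lay above the RPL10A-STAMP values by a narrow margin. The scaled mean was 2.02 times higher with RPL22-STAMP and the log2 fold change was -0.58 (SE 0.14, limma adjusted p = 0.0333). The call did not hold when any 1 library was left out, with adjusted p from 0.0555 to 0.112, nor without scaling (adjusted p = 0.247). Its exons share no base with another listed gene and no run of 50 bases of its transcript recurs elsewhere in the genome.

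Several members outside the called pair had libraries that did not overlap between the variants, and these were chosen after their values were seen. On scaled values *Mrpl11*, *Mrpl33*, *Mrpl44* and *Mrps17* were higher in all RPL10A-STAMP libraries and *Mrpl42*, *Mrps24* and *Mrps5* in all RPL22-STAMP libraries. The share of all tested genes that did not overlap was 20.0% toward RPL10A-STAMP and 17.1% toward RPL22-STAMP, above the share of the members in both directions. On the deposited values 6 members (the first 4 with *Mrpl51* and *Mrpl58*) did not overlap toward RPL10A-STAMP, where 28.2% of all genes did not, and *Mrps24* and *Mrps5* toward RPL22-STAMP, where 6.21% did not. *Mrpl33*, the counterpart of a small bacterial protein of the large subunit, came closest to a call among the rest. Its EPR was 0.0168, 0.00886 and 0.0185 with RPL10A-STAMP, against 0.00347, 0.00517 and 0.00383 with RPL22-STAMP. The log2 fold change was 0.62 (SE 0.19, limma adjusted p = 0.0687). With each of the 6 libraries left out in turn, *Mrpl33* passed the threshold in 1 of the 6 fits, that without RPL10A-STAMP replicate 2. The limma adjusted p over these fits ran from 0.0349 to 0.184. With the GC trend removed its log2 fold change was 0.37 (limma adjusted p = 0.255). Of its transcript, 8.8% is matched exactly elsewhere in the genome. *Mrpl11*, at the base of the L7/L12 stalk, was tight with RPL10A-STAMP at 0.00729, 0.00649 and 0.00756 and lower with RPL22-STAMP at 0.00114, 0.00442 and 0.00156. Its log2 fold change was 0.38 (SE 0.13, limma adjusted p = 0.0917), which on this scale understates a scaled mean 2.48 times higher with RPL10A-STAMP. *Mrpl42*, a large-subunit protein found only in mitochondria, ranged from 0.00216 to 0.00290 with RPL10A-STAMP and from 0.00282 to 0.00597 with RPL22-STAMP. Its libraries were apart only after scaling (log2 fold change -0.36, limma adjusted p = 0.151).

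**Figure D3:**
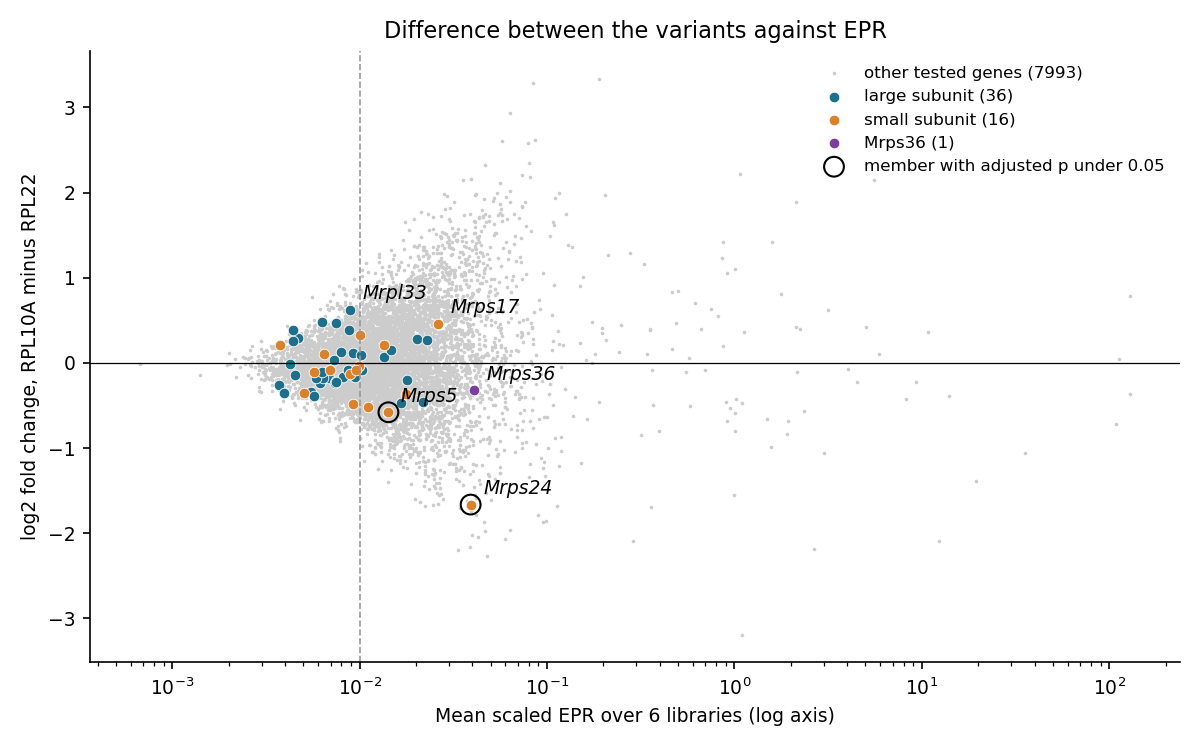
Log2 fold change (RPL10A minus RPL22, on the log2(EPR + 0.01) scale) against mean scaled EPR over 6 libraries (log axis) for all 8046 tested genes, with the 53 mitochondrial ribosomal protein genes coloured by subunit and those with an adjusted p under 0.05 ringed. Of the 53 members, 36 lie left of the dashed line at 0.01, and the ringed *Mrps24* (-1.66) and *Mrps5* (-0.58) lie to its right.

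As a list, the 53 members had a median log2 fold change of -0.11 (quartiles -0.24 and 0.16), with 20 positive and 33 negative values, beside a median of -0.01 over all tested genes. An unadjusted p under 0.05 was found for 6 members (11.3%) and for 30.9% of all tested genes. The residual SD of a member was larger, with a median of 0.28 against 0.22. No large-subunit gene was called among 36 tested (3 with an unadjusted p under 0.05). Of 16 small-subunit genes 2 were called (12.5%), beside 14.3% of all tested genes. A scaled mean EPR under 0.01, where calls were rare in any gene, was found for 27 of the 36 and 9 of the 16. These counts do not set the subunits apart. Without scaling of the libraries the median over all genes moved to 0.18 and that of the members to 0.06, and the called members became *Mrpl33*, higher with RPL10A-STAMP, and *Mrps24*.

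Mitochondrial translation needs further nuclear genes, and 48 of them that do not carry an Mrp name were read from the same fit: initiation, elongation and release factors, assembly factors, and the subunit proteins named otherwise. Of these, 21 were edited in all 6 libraries and tested, 25 were edited in 1 to 5 and 2 were at 0 in all 6. Called genes were 4 of 21 (19.0%), 3 of them toward RPL10A-STAMP, the other toward RPL22-STAMP, beside the 14.3% over all tested genes. The median log2 fold change was 0.07, with 13 positive and 8 negative values.

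*Mtif2*, the mitochondrial initiation factor that brings the first tRNA to the ribosome, was at 0.0171, 0.0301 and 0.0281 with RPL10A-STAMP, against 0.00156, 0.00770 and 0.0114 with RPL22-STAMP (log2 fold change 0.89, SE 0.24, limma adjusted p = 0.0483). *Gfm2*, which splits the mitoribosome after termination, was at 0.0170, 0.0464 and 0.0204 with RPL10A-STAMP, against 0.00275, 0.00692 and 0.00370 with RPL22-STAMP (log2 fold change 1.13, SE 0.25, limma adjusted p = 0.0275). *Nsun4*, an rRNA methyltransferase needed to join the subunits, was at 0.0138, 0.0192 and 0.0312 with RPL10A-STAMP, against 0.00400, 0.00775 and 0.00411 with RPL22-STAMP (log2 fold change 0.81, SE 0.17, limma adjusted p = 0.0238). In these 3 genes, named because they were called, every RPL10A-STAMP library stood above every RPL22-STAMP library. The same held on the deposited values for 28.2% of all 8046 tested genes. *Trub2*, a pseudouridine synthase of mitochondrial RNA, went the other way, at 0.0253, 0.0407 and 0.0373 with RPL10A-STAMP, against 0.0382, 0.0602 and 0.0440 with RPL22-STAMP (log2 fold change -0.68, SE 0.14, limma adjusted p = 0.0229). Its deposited values overlapped between the variants. When each of the 6 libraries was left out in turn, *Mtif2* passed the threshold in 1 of the 6 fits and each of *Gfm2*, *Nsun4* and *Trub2* in 2, with adjusted p over the 4 genes from 0.0370 to 0.135. Over all 17 alternatives the call was lost in 12 for *Mtif2*, 7 for *Gfm2*, 8 for *Nsun4* and 9 for *Trub2*. With the GC trend removed the adjusted p was 0.118 for *Mtif2* and 0.0613 for *Trub2*, and without scaling *Trub2* had a log2 fold change of -0.37 (limma adjusted p = 0.354).

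Small-subunit proteins that carry other names are *Dap3*, *Ptcd3*, *Chchd1* and *Aurkaip1*, and all 4 were edited in all 6 libraries. None was called, but *Ptcd3*, a pentatricopeptide protein of the small subunit chosen after its values were seen, lay at the threshold. It was at 0.0163, 0.0234 and 0.0296 with RPL10A-STAMP, against 0.00220, 0.0109 and 0.00884 with RPL22-STAMP (log2 fold change 0.76, SE 0.21, limma adjusted p = 0.0501). These values did not overlap, as was so in this direction for 28.2% of all tested genes. Its fold change had the opposite sign to those of *Mrps24* and *Mrps5*, which encode proteins of the same subunit.

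**Figure D4:**
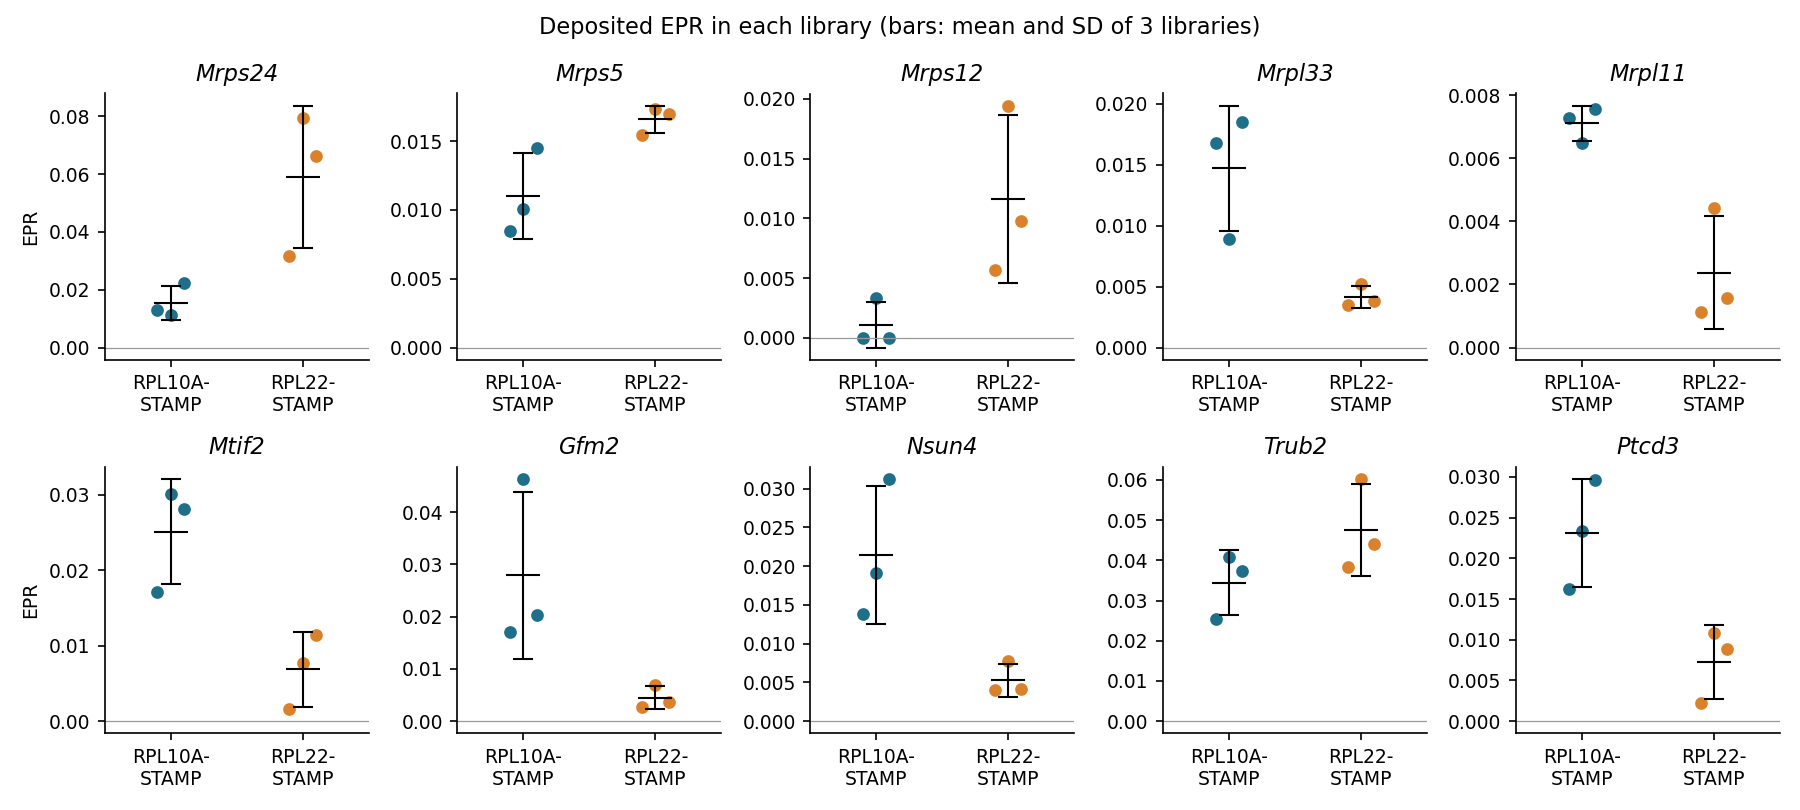
Deposited EPR in each library for 5 mitochondrial ribosomal protein genes (upper row) and 5 other genes of mitochondrial translation (lower row); points are libraries, bars the mean and SD of the 3 libraries of a variant, and each panel has its own EPR axis. *Mrps24*, *Mrps5* and *Mrps12* are higher with RPL22-STAMP, and *Mrpl33*, *Mrpl11*, *Mtif2*, *Gfm2*, *Nsun4* and *Ptcd3* with RPL10A-STAMP, while the values of *Trub2* overlap.

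Member transcripts were shorter in the median than those of other genes, with exceptions such as *Mrpl17* at 7300 nt. The median length of the transcript with the longest coding sequence was 1336 nt over the 78 genes, against 2539 nt over all listed protein-coding genes, and the median coding length was 582 nt against 1173 nt. Members edited in all 6 libraries had longer 3' UTRs than the rest, with a median of 635 nt against 228 nt for the 25 members at 0 in 1 or more libraries, while their median coding length was no longer (564 nt against 648 nt). Protein-coding genes edited in all 6 libraries also had longer 3' UTRs, with a median of 1324 nt against 726 nt over all listed ones. Their median coding length was longer too (1479 nt against 1173 nt). Across the 53 members edited throughout, mean EPR had a Spearman's rho of 0.36 with 3' UTR length, -0.39 with coding length, 0.16 with transcript length and -0.21 with GC content. Over 7923 protein-coding genes edited throughout the same values were 0.21, -0.03, 0.14 and -0.21 (GC content over 7920). In single libraries rho with 3' UTR length was 0.42, 0.26 and 0.40 with RPL10A-STAMP, against 0.22, 0.43 and 0.02 with RPL22-STAMP, so RPL22-STAMP replicate 3 did not show it.

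Examples were *Mrps17* and *Mrpl17*, chosen after their values were seen for their long 3' UTRs of 4401 and 6651 nt, with mean EPRs of 0.0279 and 0.0211. *Mrpl15*, with 3253 nt, had the lowest mean of the members edited throughout, 0.00351, and *Mrps36* the highest with 301 nt. With the trend of EPR with transcript length removed from each library, the members' median log2 fold change moved from -0.11 to -0.01. The correlations with transcript features are across genes that share libraries, and are given as descriptions without a test.

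**Figure D5:**
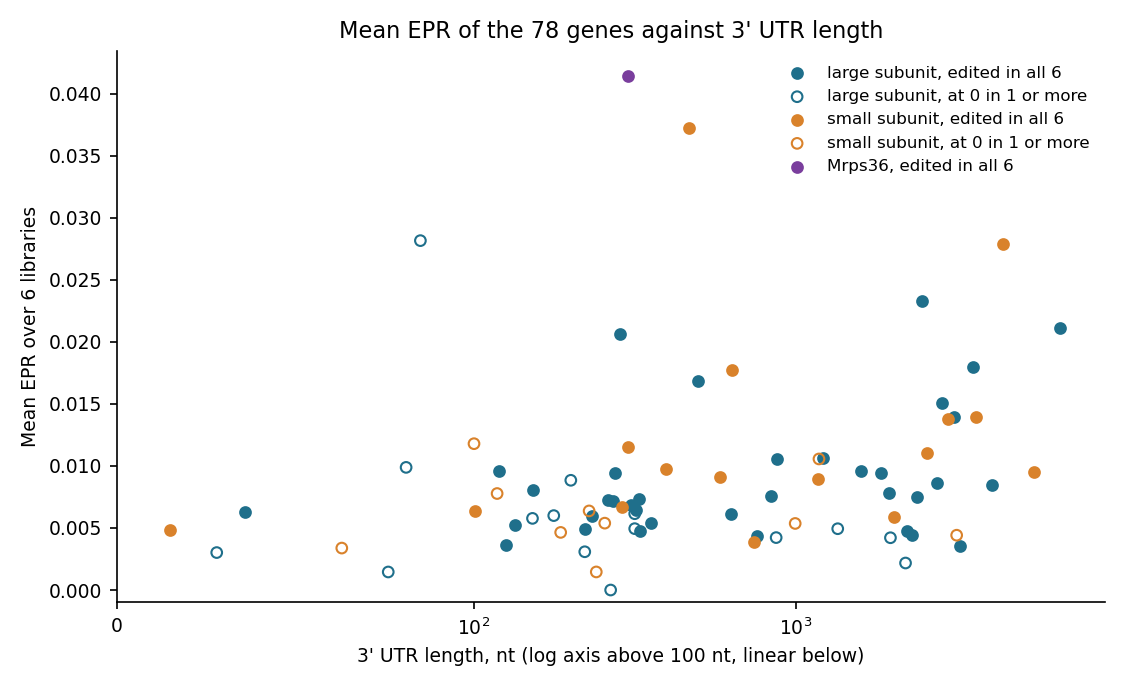
Mean EPR over 6 libraries of the 78 genes against the length of the 3' UTR of the transcript with the longest coding sequence (log axis above 100 nt, linear below); filled points were edited in all 6 libraries, open points were at 0 in 1 or more. Open points gather at short 3' UTRs (median 228 nt), and among the filled points with long 3' UTRs are *Mrpl15* (0.00351) and *Mrps17* (0.0279).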

How the data were processed

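Single-end reads had been trimmed (cutadapt), aligned to mm10 (STAR), searched for C-to-U edits (SAILOR) and counted per gene (featureCounts) by the authors, who deposited 1 ratio of edits to reads (EPR) per gene and library, not normalized between libraries. The annotation and the strand setting of the counting are not given in the sources used here. Symbols came from GENCODE mouse release 21 (31011 genes matched, 42 did not). For the test, the EPR values were rescaled so that all libraries had the same median over the 8046 genes edited throughout, the geometric mean of the 6 library medians. Then log2(EPR + 0.01) was fitted with limma 3.58.1 (R 4.3.3, variance trend), adjusted by Benjamini-Hochberg over all 8046 genes, with a threshold of 0.05. Folds on this scale understate changes at low EPR. The fit was tested on simulated data. Exact copies of at least 50 bases were found with BLAST 2.17.0, and features with Python 3.11.15, numpy 2.4.6, pandas 2.3.3 and scipy 1.17.1. The members and lists were chosen with earlier results of these data known. Named members were those called, the 3 highest and 3 lowest means, those at 0 throughout, *Mrpl10*, *Mrpl12*, *Mrpl45*, *Mrps12* and *Mrps36* for their roles, and called genes of mitochondrial translation. The exact permutation test of 3 libraries against 3 allows no p below 0.10 and was not used. Alternatives changed the filter, pseudocount, scaling, GC and length trends, replicate block and libraries.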

Additional observations from a re-analysis of the deposited data

How the results depend on the processing

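Of the members, *Mrps24* stayed called under all 17 alternatives to its fit (adjusted p from 0.00520 to 0.0489), and *Mrps5* lost its call under 11 of 17 (adjusted p from 0.0284 to 0.247). The number of members called was therefore 1 in place of 2 with genes edited in at least 3 libraries, with no filter, with a replicate block and with the GC trend removed together with a replicate block, and 1 to 2 with each library left out. It was also 1 without the members that share exon bases on the same strand, since that leaves out *Mrps24*. Calls over all genes fell from 1149 to 754, 569, 603 and 227 under the first 4 of these, to 663 with the GC trend removed and to between 373 and 874 with a library left out. Replicate numbers were not taken as pairs in the main fit, since the scaled deviations of libraries with the same number correlated at 0.04, 0.05 and -0.01. Scaling removes shifts of a whole library, so these correlations cannot show whether such shifts were shared. The median log2 fold change of the members moved from -0.11 to -0.0059 with the length trend removed, 0.062 without scaling and -0.22 with a pseudocount of 0.001, and lay between -0.11 and -0.03 with a library left out. The difference of the members' median EPR between variants, 0.00104 over all 78 members, became -0.000830 when divided by the median gene of each library, and ranged from 0.000111 to 0.00203 with a library left out. Uncalled members changed direction: *Mrpl10* from -0.09 to 0.0778 with the GC trend removed, also with the replicate block, 0.0257 with the length trend removed and 0.0746 without scaling, and from -0.36 to 0.12 with a library left out, *Mrpl12* from -0.24 to 0.0461 with the GC trend removed, also with the replicate block, and *Mrps36* from -0.64 to 0.0706 with a library left out. The number edited in all libraries stayed between 51 and 60. The cause of these changes was not tested, and depth is unknown.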
